A study of Homo sapiens with 15 samples.

Results

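HOX genes encode homeodomain transcription factors that lie side by side in 4 clusters, HOXA to HOXD. The 39 genes described here were every protein-coding symbol formed by HOX, a cluster letter and a number, and they were 39 of the 60649 genes in the raw count table. RNA was sequenced from K562 cells, a human line from chronic myelogenous leukaemia with erythroid character, after 24 h with martinostat at 0.15, 0.25, 0.5 or 1 µM or left untreated. Martinostat is a hydroxamate inhibitor of histone deacetylases, the enzymes that remove acetyl groups from histones and other proteins. Each of the 5 groups held 3 biological replicates, 15 libraries in all, and every library came from this 1 line, so the spread is that between cultures of it. A vehicle was not named for the untreated cells. The comparisons addressed how the transcriptome changed with the dose of the inhibitor.

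In animals, HOX genes give cells their position along the body axis. Genes with low numbers lie at one end of a cluster and act towards the head, genes with high numbers lie at the other end and act towards the tail, and genes of the same number in different clusters, called a paralog group, are closely related. In blood formation several HOXA and HOXB genes are active in stem and progenitor cells and are switched off as cells mature. Their activity is sustained by MLL histone methyltransferase complexes and held back by Polycomb complexes, and their proteins bind DNA together with PBX and MEIS cofactors.

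On hg38, the HOXA cluster spanned chr7:27092993-27200091 (11 genes, 107 kb), the HOXB cluster chr17:48528526-48728750 (10 genes, 200 kb), the HOXC cluster chr12:53938831-54056030 (9 genes, 117 kb) and the HOXD cluster chr2:176092721-176190907 (9 genes, 98.2 kb). Within HOXB, HOXB13 stood 91.2 kb from the nearest other HOX gene model. Exons of 25 of the 39 genes shared bases with another annotated gene, often an antisense RNA of the same cluster, and 14 shared none. Whether reads were counted by strand was not given in the sources used here, so values of genes with much shared exon sequence are uncertain. For 3 genes under 50% of exon bases were unshared: HOXA7, of which 62.5% lay under exons of the opposite-strand RNA HOXA-AS3, HOXC5, and HOXD1, of which 57% lay under exons on the opposite strand, those of HAGLR among them.

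To show the sequence in front of genes that moved at the highest dose, 4 promoter windows of up to 250 bases before the annotated start were taken from RefSeq (GRCh38.p14). They belong to 2 genes called lower and 2 called higher, chosen after the values were seen, and windows with more than 30 bases in annotated exons were left out. HOXD13 (chr2:176092471-176092720, plus strand) and HOXA10 (chr7:27174321-27174570, minus strand, 1 of its 2 windows) were lower at 1 µM, and HOXA13 (chr7:27200092-27200341, minus strand) and HOXD8 (chr2:176129455-176129693, plus strand) were higher. Each is printed 5′ to 3′ on the gene's strand, and capitals mark, on either strand, TATAAA (the TATA box), CCAAT (the box bound by NF-Y), GGGCGG (the box bound by SP factors) and TGATTNAT (a sequence bound by HOX proteins with PBX).
HOXD13: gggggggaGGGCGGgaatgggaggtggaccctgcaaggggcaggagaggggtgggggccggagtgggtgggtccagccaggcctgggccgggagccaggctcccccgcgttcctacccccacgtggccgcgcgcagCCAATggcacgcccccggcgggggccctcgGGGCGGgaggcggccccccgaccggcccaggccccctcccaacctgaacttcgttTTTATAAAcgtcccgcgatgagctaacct
HOXA10: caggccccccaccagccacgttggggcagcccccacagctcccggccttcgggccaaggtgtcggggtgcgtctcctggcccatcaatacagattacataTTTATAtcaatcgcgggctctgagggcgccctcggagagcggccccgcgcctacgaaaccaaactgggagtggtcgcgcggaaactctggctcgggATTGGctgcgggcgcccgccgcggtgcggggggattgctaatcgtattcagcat
HOXA13: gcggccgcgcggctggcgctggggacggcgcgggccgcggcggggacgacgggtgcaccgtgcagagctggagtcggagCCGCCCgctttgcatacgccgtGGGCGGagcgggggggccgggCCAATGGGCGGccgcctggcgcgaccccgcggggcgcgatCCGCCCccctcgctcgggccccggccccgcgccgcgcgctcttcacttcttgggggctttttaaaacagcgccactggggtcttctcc
HOXD8: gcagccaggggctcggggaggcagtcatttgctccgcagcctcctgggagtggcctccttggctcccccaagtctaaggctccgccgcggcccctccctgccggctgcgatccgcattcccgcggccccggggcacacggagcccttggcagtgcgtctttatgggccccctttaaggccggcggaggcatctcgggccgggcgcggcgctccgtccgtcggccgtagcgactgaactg

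HOXD13 held 5 matches, with TATAAA and its complement overlapping near the start, HOXA10 held a TATAAA and a CCAAT on the reverse strand, HOXA13 held 5 matches of CCAAT or GGGCGG, and HOXD8 held none. RefSeq gave 27 windows for 20 of the HOX genes, 7 of them for HOXA3, and 35116 windows for 27305 genes in all. HOXC4 and HOXC5 have the same window, which is counted for each. No window was available for 19 HOX genes, among them HOXB2 to HOXB9, HOXB13 and HOXC8 to HOXC13. The windows printed are thus not those of most genes with large changes. CCAAT was in 66.7% of the HOX windows and 32% of all windows, TATAAA in 18.5% and 10.7%, GGGCGG in 48.1% and 42.6%, and TGATTNAT in 7.41% and 2.48%. The median ratio of observed to chance CpG was 0.888 in HOX windows and 0.558 in all. A match is only a run of letters, and both genes that rose and genes that fell carried them.

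Libraries held 23755510 to 32805574 counted reads. Levels are given as CPM, that is counts relative to library totals after TMM scaling (edgeR's default correction for composition), and a gene is called higher or lower where edgeR's quasi-likelihood test over all 15 libraries gave a Benjamini-Hochberg adjusted p below 0.05. The median log2 change of all 23711 tested genes was 0.28 at 0.15 µM and 0.32 at 1 µM, and with library totals alone these medians were 0.64 and 0.67, so the scaling sets part of every change. Replicate 3 at 0.25 µM and replicate 3 at 0.5 µM stood apart from the other libraries on the third principal component. The cells carried erythroid RNAs throughout, but the summed level of 8 erythroid markers fell in range from 3060 to 3440 CPM in untreated libraries to 830 to 968 CPM at 1 µM, where 6 of the 8 were called lower and 1 higher. GATA1, the main erythroid transcription factor, went from 328 ± 5.92 to 18.9 ± 3.08 CPM (SD, n = 3). The sum of 3 stromal markers went from a range of 3.71 to 5.19 to one of 298 to 479 CPM, nearly all of it COL1A1, whereas COL3A1 had 0 counts untreated and 4 at 1 µM. Of these 3, 2 were tested, and both were called higher at 1 µM. The sum of 3 B cell markers was at 2.28 to 4.7 CPM untreated and at 8.27 to 8.98 CPM at 1 µM, where 1 of 2 tested was called higher. Sums of 3 T cell and of 3 monocyte markers were at 3.51 to 4.62 and 6.87 to 8.83 CPM untreated, at 15.6 to 22.6 and 18.9 to 24.1 CPM at 0.15 µM, and at 1.85 to 4.32 and 2.31 to 3 CPM at 1 µM. Most of the T cell sum came from CD3D and, in untreated cells and at 0.15 µM, most of the monocyte sum from LYZ, and in the untreated libraries together CD2 and MS4A1, a B cell marker, had 0 counts and FCN1 had 1. The part of these shifts in the HOX changes was not tested.

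Untreated K562 cells expressed mainly HOXB genes. The 39 genes summed to 532 ± 15.2 CPM (SD, n = 3), of which the HOXB cluster held 77.4% ± 1.4, HOXC 14.1% ± 1.19, HOXD 7.45% ± 0.08 and HOXA 1% ± 0.215. Per kb of exon shared with no other gene, HOXB9 was the most abundant at 92.5 ± 2.28 CPM, followed by HOXB4, a regulator of haematopoietic stem cell expansion, at 44 ± 2.27 CPM. No other HOX gene reached either of them in any untreated library. Next came HOXD13 (15.4 ± 0.392 CPM per kb), HOXB2 (15.3 ± 1.2), HOXC9 (12 ± 2.42) and HOXC13 (10.6 ± 1.37), and neighbours in this order overlapped between libraries. At least 1 CPM was reached by 20 genes and at least 10 CPM by 10, while 9 had no counts in any untreated library, which allows up to 3 counts over the group.

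**Figure D1:**
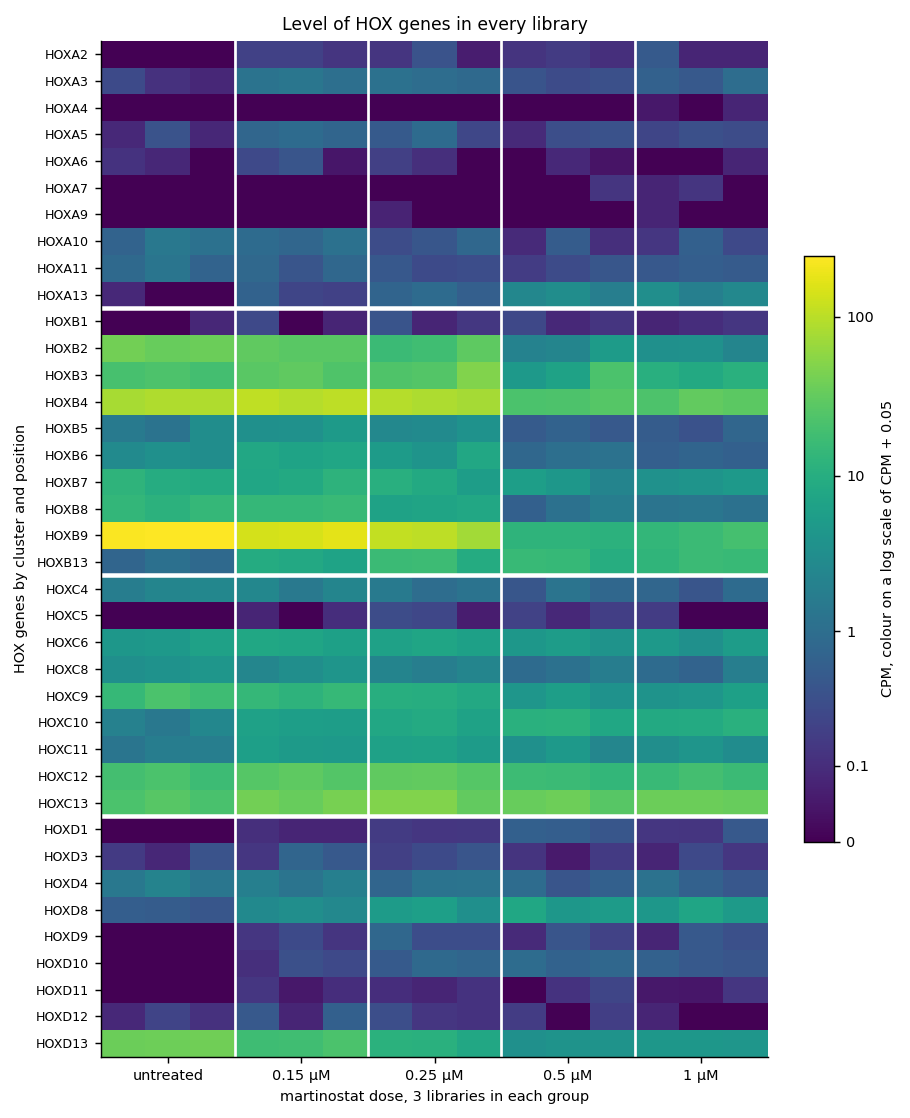
Level of HOX genes (rows, by cluster and number) in each of the 15 libraries (columns, 3 for each dose), with colour on a log scale of CPM + 0.05 from dark (0) to yellow (high). HOXB9 and HOXB4 are the brightest rows in untreated cells, the rows from HOXB2 to HOXB9 darken at 0.5 and 1 µM, and HOXB13, HOXC10 and HOXD8 brighten.

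Summed HOX RNA fell with dose up to 0.5 µM, and most of the fall came between 0.25 and 0.5 µM. The sum was 494 ± 21.3 CPM with 0.15 µM of the drug, 417 ± 29.1 CPM with 0.25 µM, 176 ± 5.2 CPM with 0.5 µM and 191 ± 11.2 CPM with 1 µM (SD, n = 3 each), so the 3 libraries at 1 µM (178 to 199 CPM) lay far below the untreated ones (516 to 546 CPM). The HOXB sum went from 412 ± 6.24 to 78.8 ± 8.97 CPM at 1 µM and its share from 77.4% to 41.3% ± 2.48. Much of this was HOXB9, which alone went from 239 to 16.7 CPM, so the sums mainly follow a few abundant genes. HOXD also fell, from 39.6 ± 1.07 to 12.1 ± 1.59 CPM, while HOXD13 alone went from 37.1 to 4.38 CPM. By contrast, HOXA rose from 5.36 ± 1.29 to 23 ± 2.25 CPM, and HOXC was at 75.5 ± 8.35 CPM untreated, 102 ± 4.62 at 0.15 µM and 76.7 ± 1.99 at 1 µM. In bulk RNA, fewer cells with a transcript and less of it per cell cannot be told apart.

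**Figure D2:**
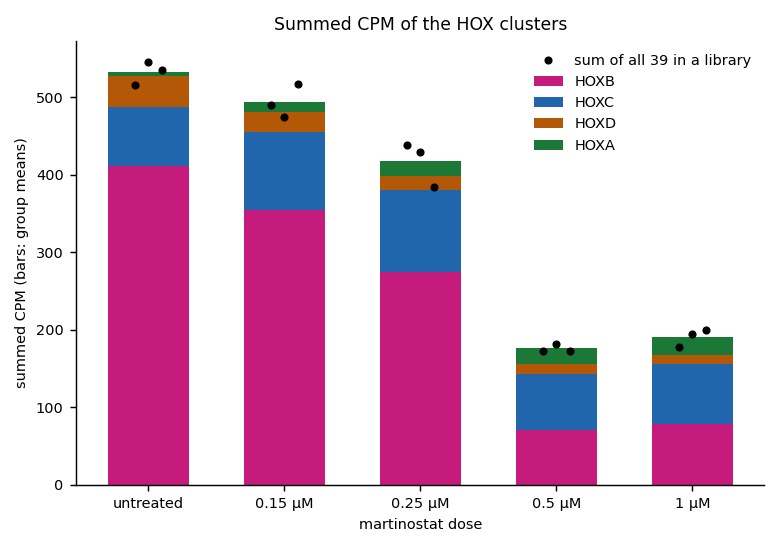
Stacked bars give the mean CPM (n = 3) summed over the HOX genes of each cluster at each dose, and points give the sum of all 39 genes in each library. The points lie at 516 to 546 CPM in untreated cells and at 178 to 199 CPM at 1 µM, and the HOXB part shrinks from 412 to 78.8 CPM.

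After a filter on low counts, 31 of the 39 genes were tested, and HOXA2, HOXA4, HOXA6, HOXA7, HOXA9, HOXB1, HOXC5 and HOXD11 were not. At 0.15 µM, 15 HOX genes were called higher and 2 lower, where 51.2% of all 23711 genes were called, 31.9% higher and 19.4% lower. At 0.25 µM there were 13 higher and 7 lower, beside 37.4% and 24.8% of all genes (62.3% in either direction). At 0.5 µM there were 10 higher and 14 lower (39.4% and 27.6% of all genes, 66.9% together) and at 1 µM 11 higher and 14 lower (38.8% and 27.5%, 66.2% together). The median log2 change of the tested HOX genes was 0.74 at 0.15 µM and -0.87 at 1 µM. These were 1.09 and -0.51 with library totals, and 1 and -0.48 with TMM factors computed on genes at 10 CPM or more. The 20 genes at 1 CPM or more in untreated cells had medians of 0.2 and -1.64. The other 11 tested had 2.24 and 2.7, with groups at 0 counts set to 3 counts. Several of these 11 passed the filter only through treated libraries.

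Counts by level in untreated cells rest on the same libraries that are the reference of each change, and are given as a description. Of the 20 HOX genes at 1 CPM or more in untreated cells, 0.15 µM left 7 higher and 2 lower, whereas of all genes at that level 20.5% were higher and 33% lower. With 1 µM the 20 genes had 4 higher and 14 lower, beside 24.6% and 44.9% of all genes at that level. Of the 19 HOX genes under 1 CPM, 11 passed the filter, in several cases only through the treated libraries in which they were high, so no direction is read from their calls.

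Over the doses, 10 HOX genes were higher at all 4, among them HOXA13, HOXB13, HOXC10, HOXC11, HOXC13, HOXD8 and HOXD10, and HOXB9 and HOXD13 were lower at all 4, patterns that 24.6% and 15.1% of all tested genes showed. Of the 10, HOXA13, HOXD1, HOXD9 and HOXD10 passed the filter only through treated libraries, and HOXD8 needed them too. This fixed or, for HOXD8, favoured the direction of their calls, so the 10 are not read against that share. At both 0.5 and 1 µM 13 genes were lower (25.8% of all genes), 11 of them without being lower at 0.15 µM (10.4% of all genes). Both HOXB5 and HOXB6 were higher at 0.15 µM and lower at 1 µM, as were 1.43% of all genes. Only HOXC6, HOXD3 and HOXD12 were tested and called at no dose, and over the 5 groups 29 of 31 genes differed, beside 73.6% of all genes.

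**Figure D3:**
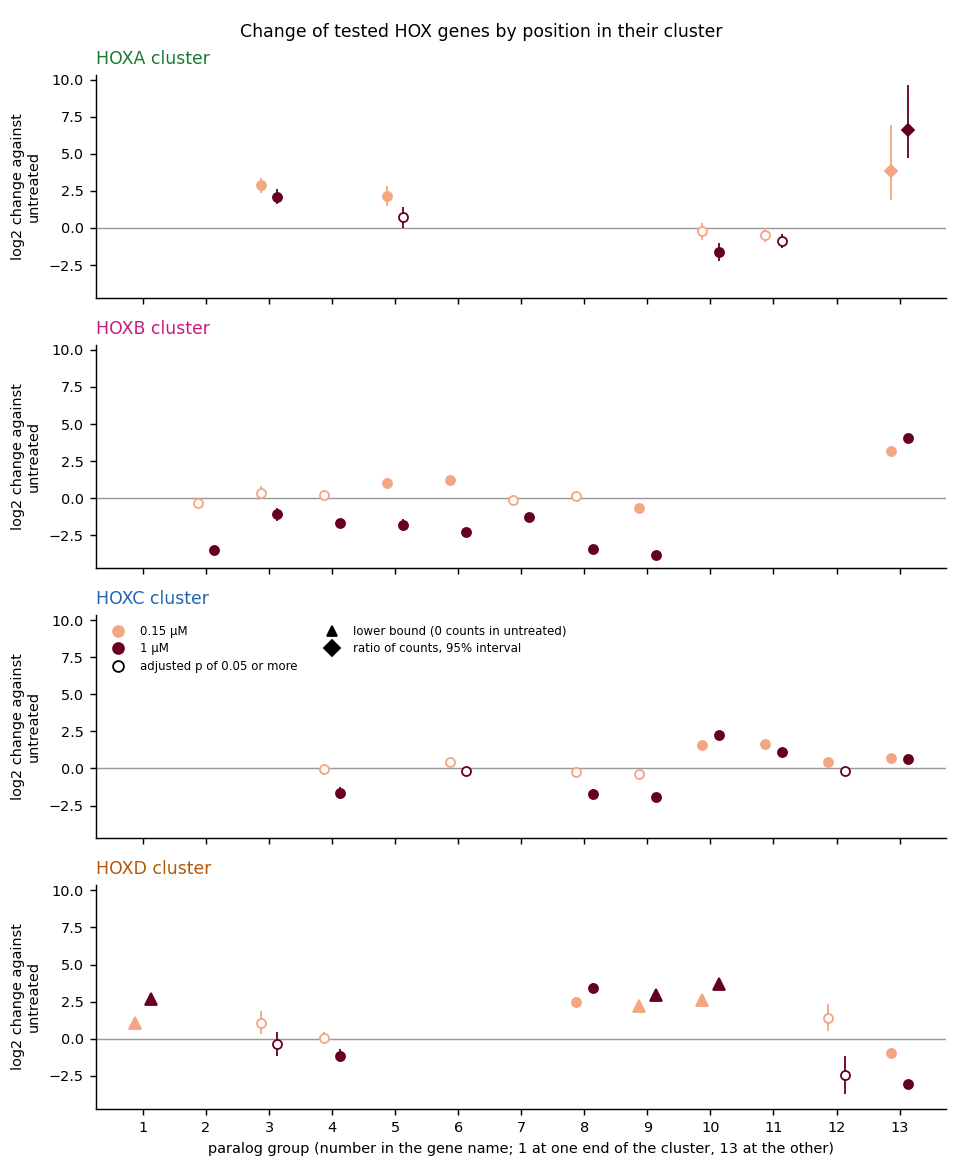
Log2 change against untreated cells at 0.15 µM (light) and 1 µM (dark) for tested HOX genes, placed by their number in the cluster, with standard errors as bars, open symbols for an adjusted p of 0.05 or more, triangles for lower bounds and diamonds for ratios of counts with their 95% interval. At 1 µM the genes from HOXB2 to HOXB9 lie below 0 (-3.84 to -1.07) and HOXB13 lies at 4.04.

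In the HOXB cluster the genes from HOXB2 to HOXB9 moved down together at the higher doses. All 8 were called lower at 1 µM, with log2 changes of -3.84 to -1.07, and 7 of 8 at 0.5 µM, while at 0.15 µM 2 were higher and 1 lower. This stretch was picked out after its values were seen. HOXB9, which in mice helps to pattern the thoracic skeleton, stood at 232, 242 and 243 CPM in untreated replicates 1 to 3, at 140, 147 and 169 at 0.15 µM, at 113, 103 and 76 at 0.25 µM, at 12.5, 12.4 and 11.7 at 0.5 µM and at 13.6, 16.5 and 19.8 at 1 µM. Every treated library was below every untreated one, and the 0.5 and 1 µM libraries were far below the rest. The log2 change of HOXB9 was -0.65 ± 0.16 (SE) at 0.15 µM (adjusted p = 0.00187, edgeR's quasi-likelihood test), where it was -0.3 (adjusted p = 0.0912) with library totals, and -3.84 ± 0.18 at 1 µM (adjusted p = 1.48e-12).

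HOXB4 was lower at 0.5 and 1 µM. It was at 81.1, 88.3 and 89.1 CPM untreated, at 107, 95.2 and 104 at 0.15 µM, at 94.1, 85.7 and 76.5 at 0.25 µM, at 21.9, 22.9 and 26 at 0.5 µM and at 22.3, 31.6 and 28.9 at 1 µM. The 3 libraries at 0.15 µM were above the untreated ones, those at 0.25 µM overlapped them and those at 0.5 and 1 µM were well below. By edgeR's quasi-likelihood test the change was 0.25 ± 0.14 at 0.15 µM (adjusted p = 0.156), -0.01 ± 0.14 at 0.25 µM (adjusted p = 0.942) and -1.64 ± 0.15 at 1 µM (adjusted p = 9.69e-09). At 0.15 µM it stayed without a call under 20 of 24 alternative settings and was called higher under the other 4. With library totals, HOXB4 was called higher at 0.25 µM (0.51, adjusted p = 0.0108), as it was when TMM factors were computed on genes at 10 CPM or more (0.4, adjusted p = 0.0223).

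HOXB2, a hindbrain patterning gene at the other end of the stretch, fell most between 0.25 and 0.5 µM. Its levels were 39.3, 33.7 and 35.5 CPM untreated, 30.6, 27.6 and 27.7 at 0.15 µM, 16.4, 18 and 29.5 at 0.25 µM, 2.08, 2.34 and 5.17 at 0.5 µM and 3.48, 3.63 and 2.34 at 1 µM. All treated libraries were below all untreated ones, but the change of -0.34 ± 0.27 at 0.15 µM did not pass (adjusted p = 0.312, edgeR's quasi-likelihood test). At 0.25 µM HOXB2 was called lower (-0.76 ± 0.27, adjusted p = 0.0209, edgeR's quasi-likelihood test), a call lost under 7 of 24 alternative settings, among them library totals and leaving out untreated replicate 1, replicate 3 at 0.15 µM or replicate 1 or 2 at 0.25 µM. The change of -3.52 ± 0.31 at 1 µM passed (adjusted p = 1.43e-08, edgeR's quasi-likelihood test), as did that of -2.71 ± 0.3 from 0.25 to 0.5 µM (adjusted p = 2.15e-06).

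HOXB5 and HOXB6, in the middle of the cluster, changed direction with dose. HOXB6 was at 2.9, 3.48 and 3.21 CPM untreated, at 7.98, 6.81 and 7.57 at 0.15 µM, at 5.19, 3.97 and 7.99 at 0.25 µM, at 0.795, 1.05 and 1.17 at 0.5 µM and at 0.603, 0.725 and 0.628 at 1 µM. Its 0.15 and 0.25 µM libraries were all above the untreated range and its 0.5 and 1 µM libraries all below it. The log2 change was 1.22 ± 0.26 at 0.15 µM (adjusted p = 0.000623) and -2.29 ± 0.29 at 1 µM (adjusted p = 1.48e-06), and the difference between these doses was -3.51 ± 0.29 (adjusted p = 2.09e-08, edgeR's quasi-likelihood test for all 3). At 0.25 µM HOXB6 was called higher (0.84 ± 0.26, adjusted p = 0.00816), but without replicate 3 at 0.25 µM the change was 0.54 (adjusted p = 0.0834), again by edgeR's quasi-likelihood test. Exons of HOXB6 share bases with HOXB3 and with the antisense RNA HOXB-AS3, and 67.1% of them were unshared.

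HOXB5 showed the same order of doses at lower levels. It was at 1.59, 1.2 and 3.17 CPM untreated, at 3.55, 3.57 and 5.13 at 0.15 µM, at 2.58, 2.83 and 3.71 at 0.25 µM, at 0.53, 0.669 and 0.489 at 0.5 µM and at 0.532, 0.38 and 0.767 at 1 µM. The groups at 0.15, 0.5 and 1 µM did not overlap the untreated one, and the group at 0.25 µM did. The change was 1.04 ± 0.35 at 0.15 µM (adjusted p = 0.0179), a call that was lost without untreated replicate 1, untreated replicate 2 or replicate 3 at 0.15 µM, and -1.82 ± 0.39 at 1 µM (adjusted p = 0.000424, edgeR's quasi-likelihood test).

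Of the other genes in the stretch, HOXB8 changed by 0.15 at 0.15 µM (adjusted p = 0.624) and by -3.4 ± 0.27 at 1 µM (adjusted p = 2.02e-09, edgeR's quasi-likelihood test). HOXB7 was lower at 1 µM by -1.29 ± 0.31 (adjusted p = 0.00106). HOXB3 was at 19.2 to 23 CPM untreated and 8.63 to 10.9 CPM at 1 µM, a change of -1.07 ± 0.44 (adjusted p = 0.0444) that was no longer called under 15 of 24 alternative settings. It was high in the libraries that stood apart, 47.9 CPM in replicate 3 at 0.25 µM and 21.7 CPM in replicate 3 at 0.5 µM. With both left out, HOXB3 was called lower at 0.5 µM (-1.84, adjusted p = 2.53e-09) and at 1 µM (-1.03, adjusted p = 1.17e-06). Without these libraries, HOX calls higher and lower against untreated cells numbered 17 and 2 at 0.15 µM, 14 and 8 at 0.25 µM, 11 and 15 at 0.5 µM and 12 and 14 at 1 µM.

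HOXB13, the outlying gene of the cluster and a transcription factor of the prostate, rose at every dose. Levels were 0.736, 1.08 and 0.861 CPM untreated, 9.31, 8.3 and 6.85 at 0.15 µM, 16.4, 16.6 and 9.29 at 0.25 µM, 15, 14.5 and 9.79 at 0.5 µM and 12.7, 16.5 and 15.1 at 1 µM. All treated libraries were above all untreated ones, and the 3 highest doses overlapped each other. By edgeR's quasi-likelihood test the change was 3.18 ± 0.28 at 0.15 µM (adjusted p = 2.77e-08) and 4.04 ± 0.28 at 1 µM (adjusted p = 4e-10). HOXB13 (chr17:48724763-48728750) shares no exon bases with another gene. At 1 µM the HOXB cluster thus had 1 gene higher and 8 lower of 9 tested, with a median change of -1.82.

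**Figure D4:**
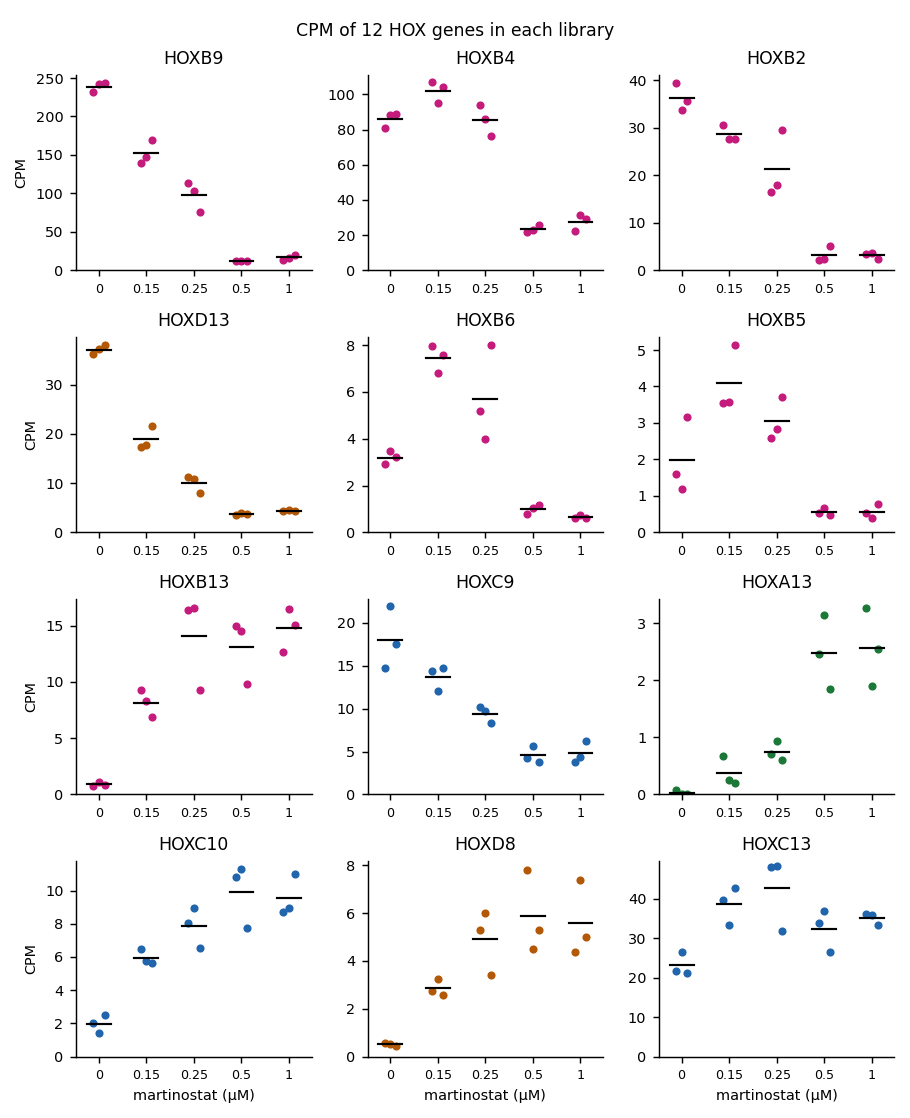
CPM of 12 HOX genes by martinostat dose (0 for untreated cells), on a linear axis from 0 for each gene, with each library as a point and the mean of 3 as a line. HOXB9 lies between 232 and 243 CPM untreated and between 13.6 and 19.8 CPM at 1 µM, while HOXB13 lies between 0.736 and 1.08 CPM untreated and between 12.7 and 16.5 CPM at 1 µM.

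The HOXC cluster divided by position. The genes from HOXC10 to HOXC13 were all called higher at 0.15 and 0.25 µM and 3 of 4 at 0.5 and 1 µM, whereas of the 4 tested from HOXC4 to HOXC9 none was called at 0.15 µM and 3 were lower at 1 µM. These stretches were likewise picked out after the values were seen, and at 1 µM the cluster had 3 genes higher and 3 lower, with a median change of -0.19 that turned to 0.17 with library totals and to 0.2 when TMM factors were computed on genes at 10 CPM or more.

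HOXC13, a hair and nail differentiation gene, was at 21.6, 26.5 and 21.1 CPM untreated, at 39.6, 33.2 and 42.7 at 0.15 µM, at 47.9, 48.2 and 31.9 at 0.25 µM, at 33.7, 36.8 and 26.4 at 0.5 µM and at 36.2, 35.9 and 33.4 at 1 µM. Apart from replicate 3 at 0.5 µM, every treated library was above the untreated range. The change was 0.74 ± 0.17 at 0.15 µM (adjusted p = 0.00169) and 0.61 ± 0.17 at 1 µM (adjusted p = 0.00503, edgeR's quasi-likelihood test), and no change between these doses was called (-0.13, adjusted p = 0.572). Per kb of unshared exon HOXC13 was the most abundant HOX gene at 1 µM (16.1 ± 0.71 CPM), overlapping HOXB4 (14.1 ± 2.46 CPM).

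HOXC12, its neighbour, was at 19.3, 22.1 and 16.8 CPM untreated, at 25.8, 29.1 and 24.9 at 0.15 µM, at 30.9, 31.1 and 26.2 at 0.25 µM, at 16.6, 16.4 and 13.9 at 0.5 µM and at 15.6, 19.2 and 16.5 at 1 µM. The lower doses lay above the untreated libraries, and the 1 µM libraries overlapped them. HOXC12 was called higher at 0.15 µM (0.45 ± 0.15, adjusted p = 0.0177), a call lost without untreated replicate 3 or replicate 2 at 0.15 µM, and was not called at 1 µM (-0.18 ± 0.15, adjusted p = 0.298, edgeR's quasi-likelihood test). Its difference between 1 and 0.15 µM was -0.64 ± 0.15 (adjusted p = 0.00209).

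HOXC10, a gene of the lumbar region and hind limb, rose at every dose. It was at 2.04, 1.43 and 2.5 CPM untreated, at 6.47, 5.75 and 5.61 at 0.15 µM, at 8.03, 8.98 and 6.56 at 0.25 µM, at 10.8, 11.3 and 7.72 at 0.5 µM and at 8.73, 8.98 and 11 at 1 µM. All treated libraries exceeded the untreated ones, and those at 1 µM exceeded those at 0.15 µM. The change was 1.58 ± 0.24 at 0.15 µM (adjusted p = 2.12e-05) and 2.26 ± 0.24 at 1 µM (adjusted p = 1.11e-07, edgeR's quasi-likelihood test). Between 0.15 and 1 µM it was higher by 0.69 ± 0.22 (adjusted p = 0.0166, edgeR's quasi-likelihood test), a call lost without replicate 2 at 0.15 µM or replicate 3 at 1 µM. HOXC11 was higher by 1.68 ± 0.27 at 0.15 µM and by 1.09 ± 0.27 at 1 µM (adjusted p = 0.00173).

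HOXC9, which sets thoracic motor neuron identity, was at 14.7, 21.9 and 17.5 CPM untreated, at 14.4, 12 and 14.7 at 0.15 µM, at 10.2, 9.73 and 8.29 at 0.25 µM, at 4.28, 5.69 and 3.78 at 0.5 µM and at 3.83, 4.32 and 6.17 at 1 µM. All treated libraries lay below the untreated ones, though replicate 3 at 0.15 µM was below untreated replicate 1 by less than the last digit given. Its change was -0.39 ± 0.21 at 0.15 µM (adjusted p = 0.129) and -1.92 ± 0.22 at 1 µM (adjusted p = 3.9e-07, edgeR's quasi-likelihood test).

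HOXC8, active at the brachial and thoracic level of the embryo, was at 3.39, 3.79 and 4.27 CPM untreated, at 2.43, 3.28 and 4.09 at 0.15 µM, at 2.24, 1.86 and 2.3 at 0.25 µM, at 0.927, 1.13 and 1.79 at 0.5 µM and at 0.923, 0.691 and 1.85 at 1 µM. From 0.25 µM on all libraries were below the untreated ones. The change was -0.22 ± 0.33 at 0.15 µM (adjusted p = 0.604) and -1.72 ± 0.35 at 1 µM (adjusted p = 0.000296), and HOXC4 was lower by -1.64 ± 0.4 at 1 µM (adjusted p = 0.00126, edgeR's quasi-likelihood test for both genes). HOXC6, with 4.46 to 6.42 CPM untreated and 3.49 to 5.47 CPM at 1 µM, was not called at 1 µM (-0.19 ± 0.23, adjusted p = 0.48).

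In the HOXD cluster, HOXD13 fell while HOXD8 stood higher in every treated library than in the untreated ones. HOXD13, which patterns the digits, was at 36.1, 37.2 and 38 CPM untreated, at 17.3, 17.7 and 21.6 at 0.15 µM, at 11.3, 10.9 and 8.06 at 0.25 µM, at 3.53, 3.85 and 3.81 at 0.5 µM and at 4.4, 4.46 and 4.29 at 1 µM. No group overlapped the untreated one, and each step in dose up to 0.5 µM lowered the whole range. The change was -0.98 ± 0.16 at 0.15 µM (adjusted p = 4.24e-05) and -3.08 ± 0.17 at 1 µM (adjusted p = 1.87e-11, edgeR's quasi-likelihood test). HOXD13 was the only member of paralog group 13 to fall: HOXA13, HOXB13 and HOXC13 were called higher at all 4 doses, and all 4 genes of the group passed the test over the 5 groups. HOXA13, however, passed the filter only through treated libraries, which fixed the direction of its calls.

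HOXD8 was at 0.573, 0.541 and 0.43 CPM untreated, at 2.74, 3.25 and 2.58 at 0.15 µM, at 5.29, 6.01 and 3.43 at 0.25 µM, at 7.82, 4.48 and 5.3 at 0.5 µM and at 4.37, 7.39 and 5.02 at 1 µM. Every treated library exceeded every untreated one, with changes of 2.46 ± 0.34 at 0.15 µM (adjusted p = 6.56e-06) and 3.43 ± 0.33 at 1 µM (adjusted p = 3.68e-08, edgeR's quasi-likelihood test). With 14, 14 and 11 untreated counts, HOXD8 needed treated libraries to pass the filter, which favoured a call of higher. Of its exon bases 24.4% lie under the antisense RNA HOXD-AS2. HOXD1, HOXD9 and HOXD10 had no counts in untreated libraries and 22, 26 and 44 at 1 µM, at least 6.49-, 7.67- and 13-fold higher against a floor of 3 counts over the untreated group. They stayed below 1 CPM in every library and passed the filter only through treated libraries, which fixed the direction of their calls.

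HOXD4 went the other way at the higher doses. It was at 1.47, 2.2 and 1.33 CPM untreated, at 1.93, 1.24 and 1.93 at 0.15 µM, at 0.746, 1.22 and 1.28 at 0.25 µM, at 0.972, 0.418 and 0.625 at 0.5 µM and at 1.17, 0.656 and 0.453 at 1 µM. Libraries at 0.15 µM overlapped the untreated ones and those at the higher doses lay below. The change at 1 µM was -1.13 ± 0.42 (adjusted p = 0.023, edgeR's quasi-likelihood test), and the call was lost under 6 of 24 alternative settings, among them without untreated replicate 2, 1 µM replicate 2 or 1 µM replicate 3.

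The HOXA cluster was nearly silent in untreated cells. HOXA13, a gene of the distal limb and urogenital tract at the high-numbered end of the cluster, was nearly absent from untreated libraries, at 0.0818, 0 and 0 CPM. It was at 0.668, 0.247 and 0.206 CPM at 0.15 µM, at 0.712, 0.93 and 0.601 at 0.25 µM, at 2.47, 3.14 and 1.85 at 0.5 µM and at 3.27, 1.9 and 2.55 at 1 µM. Each treated library exceeded each untreated one, and those at 0.5 and 1 µM exceeded those at the lower doses. In counts it went from 2 over the untreated group to 32 at 0.15 µM, which is 14.1 times as many (95% counting interval 3.61 to 122). HOXA13 too passed the filter only through treated libraries. At 1 µM it had 220 counts, 97.3 times as many as untreated (26.6 to 808). The adjusted p of edgeR's quasi-likelihood test was 0.00134 and 2.22e-07, and between 0.15 and 1 µM the change was 2.77 ± 0.48 (adjusted p = 0.000126).

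HOXA10, which is active in early myeloid progenitors, was at 0.695, 1.43 and 1.13 CPM untreated, at 0.914, 0.777 and 1.14 at 0.15 µM, at 0.305, 0.429 and 0.801 at 0.25 µM, at 0.0883, 0.544 and 0.109 at 0.5 µM and at 0.142, 0.622 and 0.279 at 1 µM. Only the 0.5 and 1 µM libraries lay wholly below the untreated ones. The change was -0.21 ± 0.57 at 0.15 µM (adjusted p = 0.789) and -1.63 ± 0.62 at 1 µM (adjusted p = 0.0264, edgeR's quasi-likelihood test), and the call at 1 µM was lost under 6 of 23 alternative settings, among them without untreated replicate 2 or 3 and without 1 µM replicate 1 or 3. Of its exon bases 73.7% were unshared. HOXA3 was called higher at 0.15, 0.25 and 1 µM, with 0.0783 to 0.286 CPM untreated and 0.484 to 0.976 CPM at 1 µM. HOXA5 was called higher at 0.15 µM alone, a call lost without untreated replicate 1 or untreated replicate 3. In untreated libraries HOXA3 had 7, 3 and 2 counts and HOXA5 had 2, 10 and 2. Both passed the filter only through treated libraries, so no direction is read from these calls. HOXA9, a gene of leukaemias with rearranged MLL, had no counts untreated and 2 counts in a single library each at 0.25 and 1 µM.

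Among the steps from one martinostat dose to the next, that from 0.25 to 0.5 µM held most of the HOX calls. The step from untreated cells to 0.15 µM, with 15 higher and 2 lower, is not part of this ranking. Between 0.25 and 0.5 µM 13 HOX genes were lower and 1 (HOXA13) higher, beside 16% and 14.4% of all genes (30.4% together). All 8 genes from HOXB2 to HOXB9 were among the lower ones, with log2 differences of -3 to -0.99. Same-numbered libraries at these 2 doses deviated together, but so did replicates 1 and 2 across numbers (correlations of 0.351 and 0.166). A pairing of the samples is therefore not established. With the replicate number as a block and only these libraries, 15 HOX genes were lower and 2 higher. All 14 calls were kept, and HOXC6, HOXC13 and HOXD1 were added. The same libraries without the block gave 10 lower and 2 higher, and HOXB3, HOXB7 and HOXC11 were no longer called. From 0.15 to 0.25 µM 2 were higher, HOXB13 among them, and 3 lower (HOXB8, HOXB9 and HOXD13), beside 4.96% and 7.32% of all genes. From 0.5 to 1 µM no HOX gene and none of the 23711 genes was called by edgeR's quasi-likelihood test or by DESeq2, and 372 genes, HOXA3 and HOXB9 among them as the only 2 HOX genes, had an unadjusted p under 0.05. Between 0.15 and 1 µM directly, 5 HOX genes were higher and 16 lower, beside 21.5% and 23.1% of all genes.

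Of 9 TALE-class genes, the PBX, MEIS and PKNOX cofactors of HOX proteins, 5 were higher and 3 lower at 1 µM, beside 38.8% and 27.5% of all genes. PBX2, the most abundant, fell from 224 ± 9.13 to 86.7 ± 4.16 CPM (log2 change -1.37 ± 0.12, adjusted p = 1.27e-08, edgeR's quasi-likelihood test). MEIS3 rose from 1.46 ± 0.514 to 81.8 ± 14.5 CPM (5.8 ± 0.26, adjusted p = 1.01e-12), and PKNOX2 from 0 to 232 counts, at least 68.4-fold. The list's median change was 1.25, beside 0.32 for all genes. PKNOX2 passed the filter only through treated libraries, which fixed the direction of its call, so no direction is read for the list.

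Among 14 genes of MLL complexes and of H3K79 methylation, which maintain HOX transcription, 2 were higher and 9 lower at 1 µM, with a median of -0.66. Each of the 14 was above 1 CPM in untreated cells, and of all genes at that level 24.6% were higher and 44.9% lower. WDR5, a core subunit, fell from 187 ± 3.03 to 56.3 ± 4.74 CPM (-1.73 ± 0.15, adjusted p = 6.42e-09, edgeR's quasi-likelihood test) and ASH2L from 245 ± 16.2 to 101 ± 3.92 CPM (-1.28 ± 0.12). DOT1L, the H3K79 methyltransferase, fell from 226 ± 14.4 to 112 ± 22.1 CPM (-1.01 ± 0.16), and its partner MLLT10 from 76.6 ± 5.89 to 30 ± 2.68 CPM (-1.35 ± 0.21). The 2 higher ones, named after their values were seen, were RBBP5, another core subunit (0.49), and AFF4, a scaffold of elongation complexes (0.81).

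Many other homeobox genes of the class that includes HOX were silent or nearly so. Of 58 listed, 32 were tested, and 22 were called higher and 2 lower at 1 µM (38.8% and 27.5% of all genes), with a median change of 2.64. In untreated cells 8 of the 32 had no counts. Such genes passed the filter only through treated libraries, which fixed the direction of their calls, so no direction is read for the list. NKX6-1 rose from 0 to 508 counts (at least 150-fold) and DLX4 from 33.9 ± 2.76 to 52 ± 7.56 CPM (0.62 ± 0.13, adjusted p = 0.000474, edgeR's quasi-likelihood test). HHEX, a haematopoietic homeobox gene, was at 126 ± 13.3 and 116 ± 9.47 CPM (-0.12 ± 0.17, adjusted p = 0.539).

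Within the clusters, 6 of 16 tested long non-coding RNA genes were higher and 4 lower at 1 µM, of 18 listed, which is near the 38.8% and 27.5% of all genes. HOXC-AS2, which overlaps HOXC9, fell from 4.96 ± 0.159 to 1.51 ± 0.171 CPM (-1.71 ± 0.24, adjusted p = 4.31e-06, edgeR's quasi-likelihood test), and HOXC-AS1 was at 3.48 ± 0.337 and 2.3 ± 0.95 CPM (-0.6 ± 0.3, adjusted p = 0.0899). HOTTIP, next to HOXA13, had 0 counts untreated and 30 at 1 µM, at least 8.85-fold higher. HOXA-AS2 went from 2 to 43 counts, 19 times as many (4.95 to 162 by counting error). With so few untreated counts, both could pass the filter only through treated libraries, so no direction is read for the list.

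Of 16 genes that flank the clusters, 14 were tested and 6 were higher and 4 lower at 1 µM, again near the shares of all genes, with a median of 0.51. TTLL6, 33.5 kb from HOXB13, rose from 0 to 646 counts, at least 190-fold and to 7.53 ± 0.689 CPM. SKAP1, 98.3 kb from HOXB1, rose from 2 to 93 counts, a ratio of 41.1 (11.1 to 345). TTLL6 and SKAP1 passed the filter only through treated libraries, which fixed the direction of their calls, so no direction is read for the list. HNRNPA1, 224 kb from HOXC4, fell from 2500 ± 202 to 1610 ± 143 CPM (-0.63 ± 0.18, adjusted p = 0.00543, edgeR's quasi-likelihood test), and ATP5MC3, 911 kb from HOXD13, from 590 ± 21.1 to 236 ± 20 CPM (-1.32 ± 0.19).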

How the data were processed

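Counts of reads per gene were deposited by the authors as raw whole numbers for 60649 genes. Per the labels and methods, poly(A) RNA from a directional kit was trimmed with Trim Galore 0.6.10, aligned to hg38 with HISAT2 2.2.1, handled with SAMtools 1.21 and counted with featureCounts 1.5.3 against GENCODE 38. GENCODE 44 gave symbols, exons and coordinates here. Normalised FPKM tables were not used.

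Groups came from the sample titles. Counts of all 15 libraries entered 1 fit in edgeR 4.0.16 (R 4.3.3) with group as the only term, filterByExpr, TMM scaling and a robust quasi-likelihood test with 10 residual degrees of freedom, and p-values were Benjamini-Hochberg adjusted over 23711 genes. Because the number of counts limits precision, a gene with 0 counts was given a floor of 3 counts over its group, and ratios on 1 to 3 counts were given 95% exact intervals, which cover counting error only. The fit was tested on simulated data. Standard errors are the log2 change divided by the square root of F.

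Members and lists were chosen with earlier results of these data known. Values in every library were given for the 2 most abundant members of each cluster in untreated cells, the 3 largest called changes at 1 µM of each cluster with at least 1 CPM in untreated cells or at 1 µM, and members called in opposite directions at 0.15 and 1 µM and between these doses. Some genes that these rules name are not reported here. Other members named, such as HOXB3 or HOXA9, were chosen after their values were seen. From the other lists at most the 2 most abundant genes and the 2 largest called changes were named. Alternatives were RLE size factors, library totals, other TMM factors, stricter and no filters, DESeq2 1.42.0, only the compared libraries, a replicate block, all exon bases as length and leaving out libraries. Deviations from group means of same-numbered libraries correlated above 0.1 in all 3 pairs only between 0.25 and 0.5 µM (0.406, 0.421 and 0.706), and over all pairs of groups the values ran from -0.172 to 0.706.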

Additional observations from a re-analysis of the deposited data

How the results depend on the processing

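Of the single-gene values under 24 alternatives, 3449 kept direction and side of the threshold, 95 lost and 49 gained a call, and 53 changed sign, none of them called in the reported fit. With library totals, HOX genes called lower numbered 1 at 0.15 µM and 2 at 0.25 µM, and 2 flanking genes were lower. The changes that turned positive were HOXA10 (0.15), HOXB2 (0.02), HOXB7 (0.24), HOXC4 (0.31) and HOXC8 (0.13) at 0.15 µM, HOXB4 (0.51, called) and HOXB7 (0.19) at 0.25 µM, HOXC12 (0.05), HOXC6 (0.16) and HOXD12 (0.24) at 0.5 µM, and HOXC12 and HOXC6 (0.17 each) at 1 µM. When TMM factors were computed on genes at 10 CPM or more, 3 HOX genes at 0.25 µM and 2 flanking genes were lower, and the positive changes were HOXA10 (0.06), HOXB7 (0.14), HOXC4 (0.21) and HOXC8 (0.04), HOXB4 (0.4, called) and HOXB7 (0.1), HOXC12 (0.09), HOXC6 (0.2) and HOXD12 (0.25), and HOXC12 (0.2), HOXC6 (0.19) and HOXD3 (0.01) at these doses in turn. A filter of 10 counts in every library, which tests fewer genes, gave 4 HOX genes lower at 0.25 µM, 6 higher at 0.5 and at 1 µM, 5 other homeobox genes higher and 1 lower, 1 non-coding RNA higher and 2 flanking genes lower, with HOXB7 at 0.06 and HOXC4 at 0.13 at 0.15 µM, HOXB4 at 0.27 at 0.25 µM, HOXC6 at 0.08 at 0.5 µM and HOXC6 and HOXC12 at 0.09 at 1 µM. DESeq2 and RLE size factors each put HOXB4 at 0.03 at 0.25 µM and HOXD4 at -0.02 at 0.15 µM. With only the compared libraries, 3 HOX genes were called between 0.15 and 0.25 µM, 3 non-coding RNAs were higher and HOXB4 at 0.25 µM was at 0.06, and it was at 0.08 without replicate 3 at 0.25 and 0.5 µM, an alternative chosen after seeing the data. Leaving out 1 library at a time, HOX genes lower at 0.25 µM ranged from 4 (without 0.25 µM replicate 2) to 7, and genes called between 0.15 and 0.25 µM from 2 (without 0.15 µM replicate 3, and 3 without 0.25 µM replicate 2) to 5. The changes that crossed 0 ranged from -0.44 to 0.04 (HOXA10), -0.34 to 0.04 (HOXB7), -0.18 to 0.14 (HOXC4) and -0.11 to 0.28 (HOXD4) at 0.15 µM, -0.09 to 0.08 (HOXB4) and -0.11 to 0.97 (HOXD12) at 0.25 µM, -0.71 to 0.34 (HOXD12) at 0.5 µM and -0.97 to 0.43 (HOXD3) at 1 µM. Where no cause is named, the cause was not tested. Whether replicate numbers pair the samples between 0.25 and 0.5 µM cannot be told, because replicate 3 stood apart at both doses. Deviations of replicates 1 and 2 from group means correlated at 0.406 and 0.421 for the same number. For different numbers they correlated at 0.351 and 0.166. Pairs of replicate 3 with another number ran from -0.57 to -0.413. Between other doses replicate numbers were taken only as names. With the replicate block, calls higher and lower were 15 and 2, 14 and 7, 10 and 15, and 11 and 14 at the 4 doses, 22 between 0.15 and 1 µM, 5 and 14 for the first 2 steps, 0 for the last step and 28 over the 5 groups. With the block and only the libraries at 0.25 and 0.5 µM, chosen after seeing the data, 17 HOX genes were called in that step. Depth limits the 9 genes without counts in untreated cells to lower bounds.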
